A study of Rattus norvegicus with 18 samples.

Results

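Expression of 8 cartilage matrix genes was followed in rat bone repairing around 3D-printed scaffolds. The genes are Acan, Sox9, Lect1, Comp, Matn1, Matn3, Hapln1 and Chad, picked by name, and all 8 were among the 17337 genes of the deposited count table. All 8 also passed the filter on low counts that left 11814 genes for testing. Wild-type rats received a scaffold in a critical-size defect of the radius, a gap too large to heal unaided. The scaffold was polycaprolactone alone (PCL), polycaprolactone with microparticles of calcium phosphate (CaP), or polycaprolactone with amorphous calcium phosphate chitosan nanoparticles (ACPC-NP), and tissue was taken at week 2 or week 6 after implantation. Each of the 6 groups had 3 libraries, so there were 18 in all. Every library is bulk polyadenylated RNA from cells freed by enzyme digestion from marrow and from bone within 1 mm of either end of the scaffold. The rats' strain, age and sex are not given in the labels, and every group holds an implant, so no uninjured bone enters the comparisons. Whether each library stands for its own rat is not stated in the labels, so p-values measure the spread between these libraries, which may be technical.

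Cartilage is built by chondrocytes, which fill the space around themselves with a mesh of type II collagen and with aggregates of the proteoglycan aggrecan held on hyaluronan. Sox9 is the transcription factor that directs chondrocyte fate and switches on collagen II and aggrecan. Acan encodes aggrecan, and Hapln1 encodes the link protein that locks aggrecan to hyaluronan. Matn1, Matn3 and Comp encode adaptor proteins that bridge collagen fibrils and other matrix molecules, while Chad encodes chondroadherin, a small leucine-rich protein that binds collagen and cell-surface integrins and is also found in bone. Lect1, now named Cnmd, encodes chondromodulin, which keeps blood vessels out of cartilage. In a healing bone such genes are known from the cartilage callus that forms before bone replaces it, and from joint and growth plate cartilage.

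For 5 of the 8 genes (Acan, Comp, Matn3, Hapln1 and Chad) the RefSeq table of build GRCr8 gave a promoter sequence. 3 of them are shown, the 250 bases before the annotated start, written 5′ to 3′ on the gene's strand, because the levels of Hapln1 and Matn3 followed those of collagen II from library to library and the level of Chad departed from them between the weeks. Capitals mark matches to the motifs searched on both strands, which do not overlap one another: TATAAA (the core of a TATA box), and AACAAT and ACAAAG (hexamers of the kind that SOX proteins bind).
Hapln1, chr2:22366717-22366966, plus strand: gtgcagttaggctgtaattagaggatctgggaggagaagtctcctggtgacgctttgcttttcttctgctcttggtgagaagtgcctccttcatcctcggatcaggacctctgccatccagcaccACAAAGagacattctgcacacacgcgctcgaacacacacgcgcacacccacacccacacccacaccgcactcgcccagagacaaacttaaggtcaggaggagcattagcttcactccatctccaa
Matn3, chr6:37467479-37467728, plus strand: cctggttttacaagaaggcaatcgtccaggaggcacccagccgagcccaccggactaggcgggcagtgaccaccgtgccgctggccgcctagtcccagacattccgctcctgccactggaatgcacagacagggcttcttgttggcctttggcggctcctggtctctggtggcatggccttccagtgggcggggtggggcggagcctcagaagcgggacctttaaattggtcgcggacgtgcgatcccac
Chad, chr10:80008795-80009044, plus strand: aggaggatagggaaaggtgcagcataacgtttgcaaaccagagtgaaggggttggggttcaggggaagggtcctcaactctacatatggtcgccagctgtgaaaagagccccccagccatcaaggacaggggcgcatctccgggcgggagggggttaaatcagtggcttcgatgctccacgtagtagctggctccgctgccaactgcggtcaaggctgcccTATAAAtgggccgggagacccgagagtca
TATAAA began 29 bases before the start of Chad and was found in none of the other 4 promoters. ACAAAG began 125 bases before the start of Hapln1 alone, and AACAAT was in none of the 5. Over 33469 rat promoters of this length, 12.9% held TATAAA, 16.3% held ACAAAG and 10.3% held AACAAT on either strand, so each is a common match and describes only the letters in the window.

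Levels are CPM, the counts of a gene scaled to library size by edgeR, and are compared only within a gene, since gene lengths were not used. Total counts ran from 18880604 to 27186587 per library. ACPC-NP week 2 replicate 3 stood apart from the others, at 55.4 on the first principal component against -23.9 to 26.2, with 3.51% of its counts on the ferritin gene Fth1 against 0.129% to 0.467% elsewhere. In the cartilage genes the libraries that stood out were others. PCL week 2 replicate 2 was among the 4 highest of 18 libraries for 7 of the 8 genes, PCL week 6 replicate 3 for 8, CaP week 6 replicate 3 for 7 and CaP week 2 replicate 3 for 6. ACPC-NP week 6 replicate 1 was among the 4 lowest for all 8.

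The collagen II gene Col2a1, which is not 1 of the 8, was read as a marker of cartilage RNA. It was detected in every library, from 11.8 CPM in ACPC-NP week 6 replicate 1 to 7318 CPM in PCL week 2 replicate 2. In the PCL libraries it read 227, 7318 and 135 CPM at week 2 and 57.6, 62.6 and 2195 CPM at week 6. Around CaP it read 1901, 1547 and 3759 CPM at week 2 and 58.5, 58.9 and 4390 CPM at week 6, and around ACPC-NP 969.7, 1276 and 759 CPM and then 11.8, 853.5 and 699.7 CPM. The 3 libraries of a group thus lay close together in the CaP and ACPC-NP groups at week 2, while in each other group 1 library lay far from the remaining pair. Detection of Col2a1 alone does not show that a library held cartilage. In ACPC-NP week 6 replicate 1 there were 0 counts of Lect1, 2 of Matn3 and 3 of Hapln1. In bulk samples, fewer chondrocytes and less RNA per chondrocyte cannot be told apart.

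Sox9, the master regulator, showed the same unevenness at a low level. Around PCL it stood at 0.690, 7.25 and 1.96 CPM at week 2 and at 1.59, 0.515 and 7.17 CPM at week 6. Around CaP it stood at 3.21, 3.01 and 7.14 CPM and then at 1.08, 0.261 and 13.9 CPM. Around ACPC-NP it stood at 2.52, 2.48 and 0.954 CPM and then at 0.171, 4.11 and 3.49 CPM. The highest library of all was CaP week 6 replicate 3, and the library beside it in the same group, replicate 2, was the second lowest of the 18, on 6 counts against 292.

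Aggrecan and its link protein followed the same libraries. Acan read 30.9, 496 and 83.9 CPM around PCL at week 2, and 35.4, 15.8 and 145 CPM at week 6. Around CaP it read 114, 104 and 284 CPM, then 36.2, 6.23 and 286 CPM. Around ACPC-NP it read 73.9, 107 and 41.4 CPM, then 4.23, 85.6 and 96.6 CPM. The 3 CaP libraries at week 2 were all above 100 CPM, a level that was reached by 1 library in each of 4 other groups and by none around ACPC-NP at week 6.

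Hapln1 covered a wider range, from 0.128 CPM on 3 counts to 153 CPM on 3874 counts. It stood at 4.37, 153 and 2.42 CPM around PCL at week 2 and at 1.55, 1.27 and 41.3 CPM at week 6. CaP libraries held 26.0, 23.5 and 46.7 CPM at week 2 and 1.11, 0.261 and 63.8 CPM at week 6. ACPC-NP libraries held 18.9, 16.7 and 7.24 CPM, then 0.128, 13 and 8.12 CPM. Within the CaP group at week 6 the highest library exceeded the lowest 244-fold, while in the same group at week 2 it did so 1.99-fold.

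**Figure D1:**
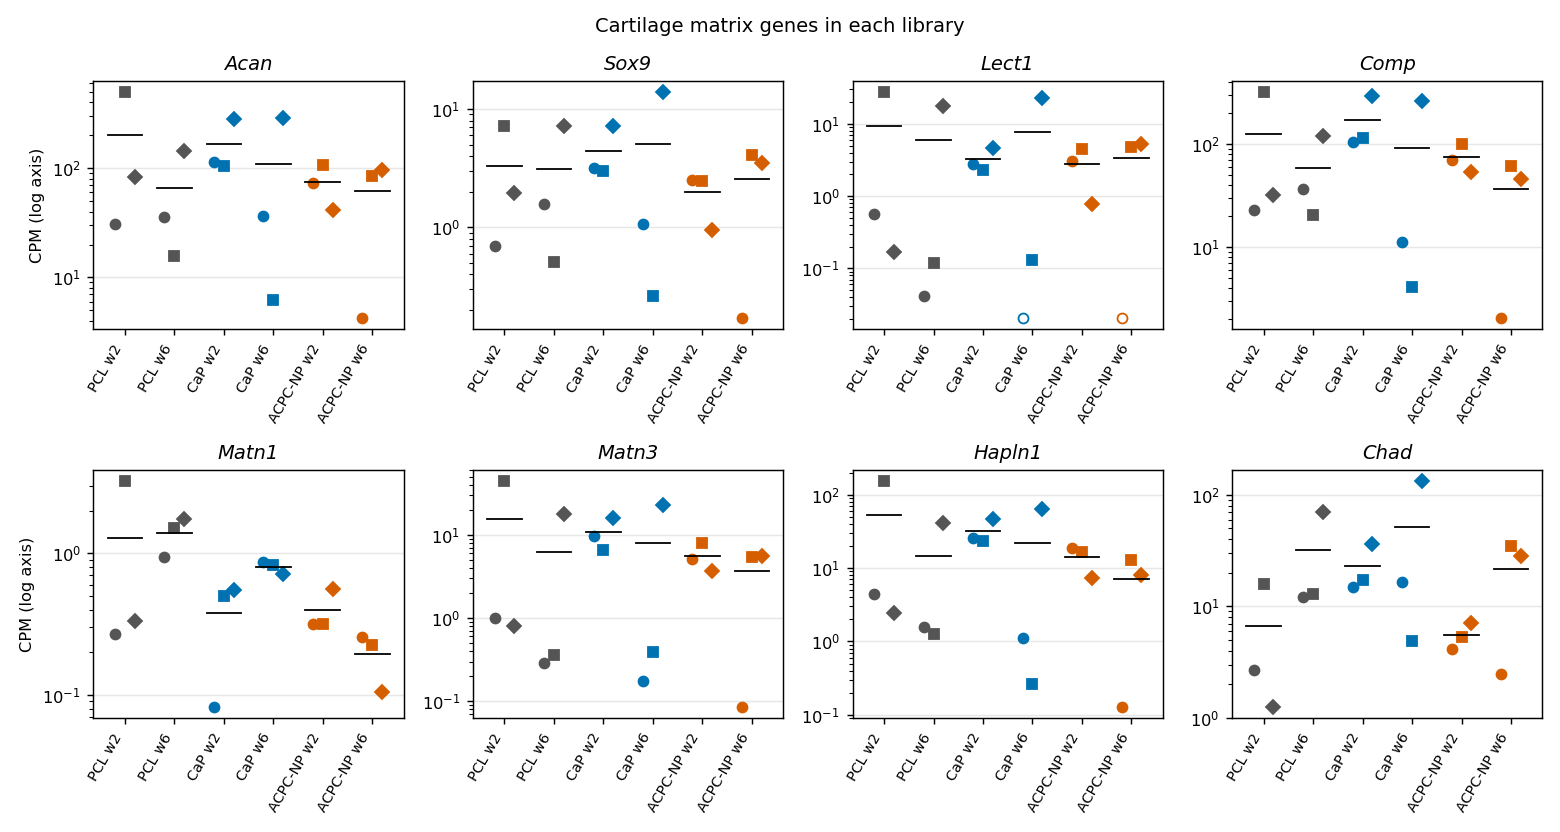
Level of each of the 8 genes in each library, in CPM on a log axis, by scaffold and week (w2, w6). Circles, squares and diamonds are replicates 1, 2 and 3, the black line is the mean of 3 libraries, and open symbols in the Lect1 panel are libraries with 0 counts, drawn at the foot of the axis. In all 8 panels a single square stands above the other PCL libraries at week 2, and in every panel but that of Matn1 a single diamond stands above the other CaP libraries at week 6.

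The matrix adaptors divided. Comp followed aggrecan, with 23.0, 319.8 and 31.9 CPM around PCL at week 2 and 37.0, 20.7 and 119.9 CPM at week 6. Around CaP Comp read 105, 115 and 294 CPM and then 11.2, 4.09 and 262 CPM, and around ACPC-NP 70.4, 99.8 and 54.3 CPM and then 2.05, 60.9 and 46.5 CPM. Matn3 did likewise at a lower level, with 0.996, 44.3 and 0.791 CPM around PCL at week 2 and 0.286, 0.356 and 17.8 CPM at week 6. Its CaP libraries read 9.78, 6.57 and 16.0 CPM and then 0.174, 0.392 and 23.0 CPM, and its ACPC-NP libraries 5.16, 8.04 and 3.65 CPM and then 0.0855, 5.37 and 5.57 CPM. For both genes the 3 libraries of CaP at week 2 were close to one another and those of CaP at week 6 were not.

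Matn1 was at the edge of detection, with 2 to 82 counts per library. It read 0.268, 3.25 and 0.333 CPM around PCL at week 2 and 0.939, 1.5 and 1.74 CPM at week 6. Around CaP it read 0.0822, 0.502 and 0.552 CPM and then 0.869, 0.828 and 0.712 CPM, and around ACPC-NP 0.315, 0.316 and 0.561 CPM and then 0.256, 0.226 and 0.104 CPM. Apart from the high library PCL week 2 replicate 2, the libraries rich in the other 7 genes were not set far apart from their groups in Matn1. CaP week 6 replicate 3 was the lowest of its group. PCL week 6 replicate 3 (1.74 against 1.5 CPM) and CaP week 2 replicate 3 (0.552 against 0.502 CPM) were narrowly the highest of theirs.

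Lect1 had the widest spread of the 8. Around PCL it stood at 0.575, 27.4 and 0.167 CPM at week 2 and at 0.0408, 0.119 and 17.9 CPM at week 6. Around CaP it stood at 2.75, 2.30 and 4.65 CPM, then at 0, 0.131 and 23.0 CPM, and around ACPC-NP at 3.03, 4.50 and 0.786 CPM, then at 0, 4.78 and 5.26 CPM. The 0 counts of CaP week 6 replicate 1 and ACPC-NP week 6 replicate 1 allow up to 0.104 and 0.128 CPM (3 counts, counting error only).

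Chad had its 2 highest libraries at week 6. Around PCL it read 2.68, 15.9 and 1.25 CPM at week 2 and 12.2, 12.8 and 70.5 CPM at week 6. Around CaP it read 14.8, 17.2 and 36.3 CPM and then 16.4, 4.92 and 133 CPM. Around ACPC-NP it read 4.09, 5.28 and 7.07 CPM and then 2.48, 34.8 and 28.2 CPM. The ranges of the weeks overlapped around each scaffold, and the library highest in most other genes, PCL week 2 replicate 2, ranked 8 of 18 for Chad.

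Spread between libraries of 1 group was far larger for these genes than for most. The within-group SD of log2 CPM was 0.914 for Matn1, 1.64 for Chad, 1.80 for Sox9, 1.91 for Acan, 1.99 for Comp, 2.64 for Matn3, 2.74 for Hapln1 and 3.18 for Lect1. The median over all genes tested was 0.259, and the 8 stood at or above percentile 95.4 of all genes. Their biological coefficient of variation ran from 62.5% to 171%, against a median of 19.0%. Scaffold and week together accounted for 8.1% of the variance of Lect1 and up to 53.6% of that of Matn1, where the median gene had 37.8%.

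**Figure D2:**
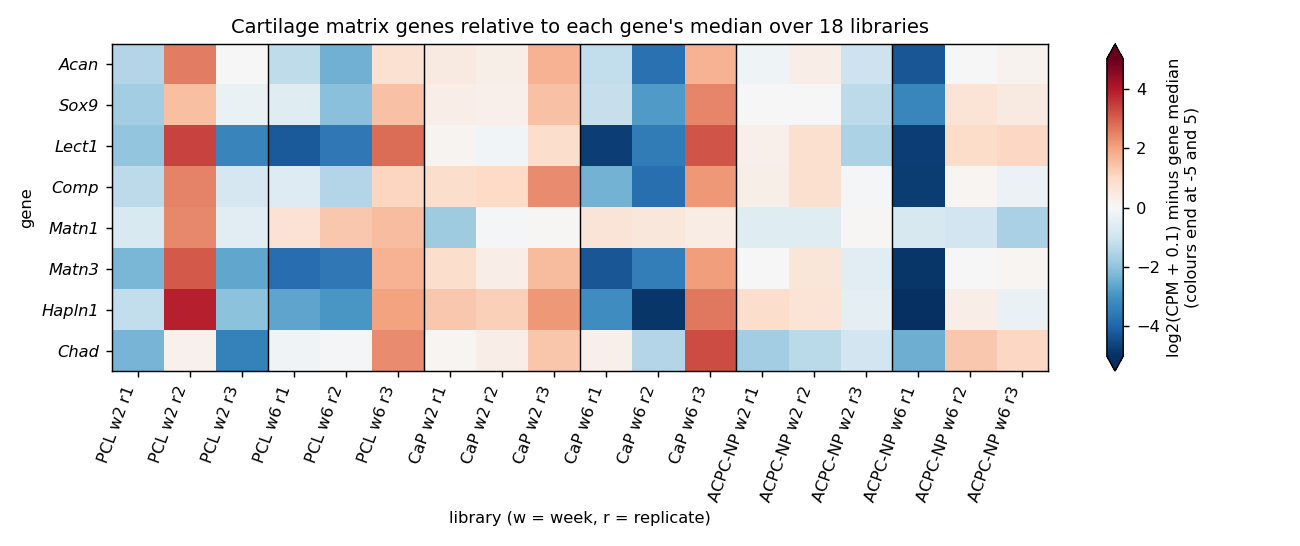
Each gene (row) in each library (column), as log2(CPM + 0.1) minus the gene's median over 18 libraries; colours end at -5 and 5, and vertical lines separate the 6 groups of 3 libraries. Columns are red or blue from top to bottom for most genes, as in PCL week 2 replicate 2 and ACPC-NP week 6 replicate 1, whereas the Matn1 row stays near its median in CaP week 6 replicate 3, where the other 7 rows are red.

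6 of the genes rose and fell together from library to library. Among Acan, Sox9, Lect1, Comp, Matn3 and Hapln1, Pearson correlations of log2 CPM over the 18 libraries were 0.84 to 0.97 over 15 pairs, and 0.86 to 0.99 after each group's mean was removed. Chad correlated with these 6 at 0.56 to 0.71 over all libraries and at 0.90 to 0.97 within groups. Matn1 correlated with the other 7 at 0.08 to 0.27, and at 0.22 to 0.38 within groups. These values describe libraries that share a preparation, and they carry no test.

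The 10 genes with levels most like the mean of the 8 were Scrg1 (r = 0.973), Col2a1 (0.964), Col27a1 (0.946), Clec3a (0.944), Col9a2 (0.941), Ucma (0.940), Crispld1 (0.938), Kcna6 (0.928), Col9a1 (0.924) and Slc38a3 (0.915), over 18 libraries. Col2a1, Col9a1, Col9a2 and Col27a1 encode collagen chains of cartilage, and Scrg1, Clec3a and Ucma are known from chondrocytes. All 10 stayed among the 10 most alike without PCL week 2 replicate 2, and 8 of 10 did so by rank correlation.

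Scaffolds were compared in pairs at each week to ask whether the particles changed expression. None of the 8 genes passed in any of the 6 comparisons by edgeR's quasi-likelihood test with Benjamini-Hochberg adjustment over all genes, where 0% of the 11814 genes passed in each. At an unadjusted p under 0.05, between 183 and 2588 genes stood in these 6 comparisons, and of the 8 only Matn1, in 3 of them. DESeq2 called up to 878 genes and voom with quality weights up to 4042, both for ACPC-NP against PCL at week 6, where each called 1 of the 8, Matn1. Standard errors of the 8 genes ran from 0.754 to 2.06 on the log2 scale, against a median of 0.21 over all genes, so that even large differences lay within the spread. Over the 6 comparisons the log2 difference ran from -1.46 to 0.74 for Acan, -1.15 to 0.70 for Sox9, -1.74 to 0.35 for Lect1, -1.34 to 0.64 for Comp, -1.45 to 0.34 for Matn3, -1.90 to 0.56 for Hapln1 and -2.06 to 1.79 for Chad. The 3 comparisons of a week share libraries and are not independent.

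At week 2 the direction of these differences turned on 1 library. For ACPC-NP against PCL, 8 of 8 genes lay below 0 with a median log2 difference of -1.45, against -0.015 over all genes. Without PCL week 2 replicate 2, 8 of 8 lay above 0 with a median of 1.45. Hapln1 in this comparison was -1.90 ± 1.78 (SE; edgeR adjusted p = 0.643) with that library and 2.07 without it. For CaP against PCL, 3 of 8 lay above 0 with a median of -0.396, and without that library 8 of 8 did, with a median of 2.87.

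Against CaP at week 2, the ACPC-NP libraries were low in 7 of 8 genes, with a median of -1.16. The CPM ranges did not overlap for 4 of the 8 (Sox9, Comp, Hapln1 and Chad), all lower around ACPC-NP. Such separation was common, since 16.5% of all genes had it in this comparison. Chad averaged 5.48 ± 1.5 CPM around ACPC-NP and 22.8 ± 11.8 CPM around CaP (SD, n = 3 each), a log2 difference of -2.06 ± 1.20 (SE; edgeR adjusted p = 0.434). It stayed between -2.29 and -1.55 when any 1 of the 6 libraries was left out. For ACPC-NP against PCL and CaP against PCL at week 2, 0 of the 8 were separated, where 17% and 6.02% of all genes were.

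At week 6 the direction turned on either of 2 libraries, CaP week 6 replicate 3 and PCL week 6 replicate 3. For CaP against PCL, 7 of 8 genes lay above 0 with a median of 0.60, and without CaP week 6 replicate 3, 0 of 8 did, with a median of -2.56. For ACPC-NP against CaP, 8 of 8 lay below 0 with a median of -1.22, and without that library 7 of 8 lay above 0 with a median of 2.08. For ACPC-NP against PCL, 8 of 8 lay below 0 with a median of -0.723, and without PCL week 6 replicate 3, 7 of 8 lay above 0 with a median of 1.32. Leaving out the latter also moved the median for CaP against PCL to 2.21. None of the 8 passed the edgeR test in these fits.

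Matn1 was the 1 gene of the 8 whose libraries at week 6 were separated by scaffold, in each of the 3 comparisons. ACPC-NP libraries held 2 to 6 counts, CaP libraries 15 to 25 and PCL libraries 23 to 41, or 0.195 ± 0.0805, 0.803 ± 0.0816 and 1.40 ± 0.412 CPM (SD, n = 3 each). Of all genes, 27% were separated for ACPC-NP against PCL, 24.9% for ACPC-NP against CaP and 8.9% for CaP against PCL. Against PCL, Matn1 was lower around ACPC-NP by a log2 difference of -2.78 ± 0.87 (SE; edgeR adjusted p = 0.1003), which missed the threshold. Other fits put the same gene past it, with -2.81 by DESeq2 (adjusted p = 0.0302, with 7.81% of genes called), -2.79 by voom (adjusted p = 0.00352, with 34.2% called) and -3.02 by edgeR without PCL week 6 replicate 1 (adjusted p = 0.0462, with 15% called). Against CaP it was -1.99 ± 0.88 (edgeR adjusted p = 0.521). At week 2 Matn1 differed by -1.74 between CaP and PCL (edgeR adjusted p = 1.00) and by 0.33 without PCL week 2 replicate 2.

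The weeks were compared within each scaffold and over the mean of 3 scaffolds, 9 libraries against 9, to follow the course of repair. None of the 8 genes passed the edgeR test within a scaffold, where 0.00846% of genes passed around ACPC-NP, 0% around CaP and 0% around PCL. At an unadjusted p under 0.05, 0 of the 8 stood within any scaffold, against 2340, 570 and 1166 of all 11814 genes around ACPC-NP, CaP and PCL. DESeq2 called 0 of the 8, and voom called 1, Matn1 around PCL, with 14.7% of genes called. Ranges of the weeks were separated for 1 of the 8, Matn1, around CaP (13.9% of all genes) and around ACPC-NP (18.5%), and for 0 around PCL (14.5%). Matn1 was higher at week 6 around CaP and lower at week 6 around ACPC-NP, and the interaction of these changes did not pass (edgeR adjusted p = 0.467).

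Over the mean of 3 scaffolds 0 of the 8 genes passed by edgeR, DESeq2 or voom, and 1 (Chad) had an unadjusted p under 0.05, as did 1724 of the 11814 genes, while 0.686% of all genes passed by edgeR. The 9 libraries of week 2 and the 9 of week 6 were separated for 0 of the 8 and for 0.11% of all genes. Chad was higher at week 6 by 1.81 ± 0.68 on the log2 scale (SE; edgeR adjusted p = 0.245), and by 1.06 without CaP week 6 replicate 3 to 2.39 without PCL week 2 replicate 2. Hapln1 stood at -1.15 ± 1.01, Comp at -1.0 ± 0.78, Acan at -0.84 ± 0.74 and Matn3 at -0.80 ± 1.01, with edgeR adjusted p-values of 0.618, 0.563, 0.617 and 0.745. Sox9, Lect1 and Matn1 stood at 0.15 ± 0.72, 0.28 ± 1.17 and 0.08 ± 0.50 (0.948, 0.936 and 0.962). Without PCL week 2 replicate 2, 6 of 8 lay above 0, and without CaP week 6 replicate 3 or without PCL week 6 replicate 3, 2 of 8 did, against 4 of 8 with all libraries. With 1 library left out Comp ran from -2.20 to -0.28 and Acan from -1.62 to -0.23. Interactions of scaffold and week were tested for each pair of scaffolds, and 0 of the 8 passed by edgeR, DESeq2 or voom in any of the 3, where 0% of all genes passed by edgeR in each. At an unadjusted p under 0.05 there were 0 of the 8, against 1768, 1673 and 198 of all genes for ACPC-NP against PCL, ACPC-NP against CaP and CaP against PCL.

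Because the libraries differed so much in their content of cartilage RNA, each gene was also read against Col2a1, a step chosen after the values had been seen. The log2 CPM of Col2a1 in each library was added to the model as a covariate, next to the 6 groups. The slope of log2 level on log2 Col2a1 was 1.01 ± 0.045 for Hapln1 and 1.05 ± 0.032 for Matn3 (SE), close to proportion. Lect1 changed more steeply, at 1.33 ± 0.076. The slope was 0.692 ± 0.065 for Comp, 0.600 ± 0.078 for Acan, 0.600 ± 0.077 for Sox9, 0.568 ± 0.048 for Chad and 0.166 ± 0.102 for Matn1. The first 7 differed from 0 (largest edgeR adjusted p = 0.00120), as did 0.449% of all genes, and they did so with any 1 library left out (largest adjusted p = 0.0310), whereas Matn1 did not pass (adjusted p = 1.00).

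As counts per 1000 counts of Col2a1, Matn3 stayed between 2.97 and 8.12 and Hapln1 between 4.44 and 26.9 over all 18 libraries. Acan ran from 54.6 to 619.9 on this measure, and its highest values were in libraries with little Col2a1, 619.9 in PCL week 2 replicate 3 and 619 in CaP week 6 replicate 1. Comp ran from 43.7 to 641, with its highest value in PCL week 6 replicate 1, where Col2a1 stood at 57.6 CPM. Neither Acan nor Comp separated the weeks.

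**Figure D3:**
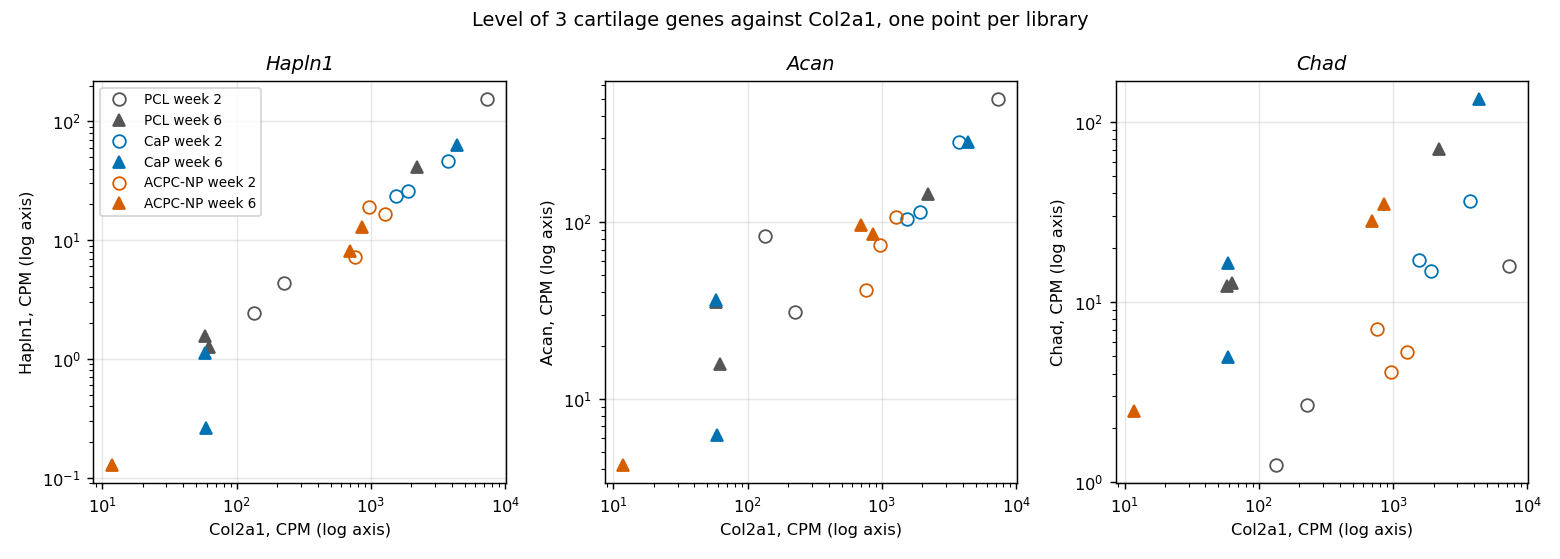
Level of Hapln1, Acan and Chad against Col2a1, each in CPM on log axes, with 1 point per library; open circles are week 2, filled triangles week 6, and colours are scaffolds. Hapln1 lies along 1 line at both weeks, and Acan scatters at low Col2a1. In the Chad panel the 4 week 6 triangles within the Col2a1 range of week 2 lie above the week 2 circles near them. The other 5 triangles have less Col2a1 than any circle.

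Chad was the gene of the 8 that separated the weeks when read this way. It had 2.17 to 11.8 counts per 1000 of Col2a1 in the 9 libraries of week 2 (median 9.23) and 30.3 to 279.9 in the 9 of week 6 (median 83.6). Around PCL the values were 11.8, 2.17 and 9.23 at week 2 and 211.8, 204 and 32.1 at week 6. Around CaP they were 7.81, 11.1 and 9.67 and then 279.9, 83.6 and 30.3, and around ACPC-NP 4.22, 4.14 and 9.32 and then 209, 40.7 and 40.3. No library of week 6 reached as low as any library of week 2, and none of the other 7 genes separated the weeks on this measure. The ratio was read for the 8 genes only, so the share of all genes that separated the weeks on it is not known. The values from 83.6 upward were in libraries with 11.8 to 62.6 CPM of Col2a1. The slope of Chad on Col2a1 was 0.568, below proportion, which raises the ratio where Col2a1 is low.

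Libraries of like Col2a1 content show the same thing in plain levels, though 5 of the 9 libraries of week 6, at 11.8 to 62.6 CPM of Col2a1, lay below the lowest of week 2, at 135 CPM, and have no such partner. CaP week 6 replicate 3 had 4390 CPM of Col2a1 and 133 CPM of Chad, while CaP week 2 replicate 3 had 3759 and 36.3 CPM. ACPC-NP week 6 replicate 2 had 853.5 CPM of Col2a1 and 34.8 CPM of Chad, while ACPC-NP week 2 replicate 1 had 969.7 and 4.09 CPM. The week 2 library nearest to it in Col2a1, ACPC-NP replicate 3, which stood apart over all genes, had 759 and 7.07 CPM. PCL week 2 replicate 2, with the highest Col2a1 of all at 7318 CPM, had 15.9 CPM of Chad.

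With Col2a1 as a covariate, Chad was higher at week 6 over the mean of 3 scaffolds by 2.69 ± 0.239 on the log2 scale (SE; edgeR adjusted p = 0.000215), where 0.169% of all genes passed and 0.127% passed as higher. The difference was 2.62 to 2.82 with any 1 library left out (largest adjusted p = 0.00663). It was 2.82 without PCL week 2 replicate 2 and ACPC-NP week 2 replicate 3 together (adjusted p = 0.00124, 0.428% called). With another cartilage gene as the covariate it was 2.76 for Col9a1 (adjusted p = 0.00527, 0.102% called), 3.15 for Col11a1 (0.0262, 0.305%), 2.63 for Hapln1 (0.000104, 0.178%) and 2.38 for Acan (0.00413, 0.305%). By voom it was 2.74 (adjusted p = 1.36e-05, 10.8% called). Since this reading was chosen with the levels of Chad in view, its p-values are not independent of that choice.

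Within single scaffolds the Chad difference at equal Col2a1 was 3.44 ± 0.409 around PCL (edgeR adjusted p = 0.00775, 0.0339% of genes called), 2.63 ± 0.393 around ACPC-NP (0.0440, 0.0254%) and 2.01 ± 0.388 around CaP (0.815, 0%). The ACPC-NP call was lost when any of 5 of its 6 libraries was left out, the exception being week 2 replicate 1, and the PCL call was lost without week 2 replicate 2 (adjusted p = 0.0886) or replicate 3 (0.0826). Around CaP the gene passed without week 6 replicate 2 (adjusted p = 0.0495). With Col9a1, Col11a1 or Acan as the covariate the ACPC-NP value missed the threshold (adjusted p = 0.122, 0.0871 and 0.111), and with Col11a1 the PCL value did too (0.127), while by voom the CaP value passed (0.0130). Without PCL week 2 replicate 2 and ACPC-NP week 2 replicate 3 together, both the ACPC-NP call (adjusted p = 0.108) and the PCL call (0.0853) were lost. The scaffolds were not shown to differ in this change, with interaction values of -0.82 ± 0.527 for ACPC-NP against PCL, 0.62 ± 0.518 for ACPC-NP against CaP and -1.44 ± 0.519 for CaP against PCL (edgeR adjusted p = 0.485, 0.601 and 1.00).

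The other 7 genes did not pass at equal Col2a1 over the mean of 3 scaffolds. Lect1 came closest, at 1.33 ± 0.304 (edgeR adjusted p = 0.0954), and passed in 2 of 25 other settings. Sox9 stood at 0.84 ± 0.351 (0.293) and passed in 1 of the 25, by voom. Matn1 stood at 0.63 ± 0.576, Matn3 at 0.33 ± 0.138, Acan at 0.07 ± 0.373, Comp at 0.02 ± 0.298 and Hapln1 at 0.02 ± 0.209, and these 5 passed in none.

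**Figure D4:**
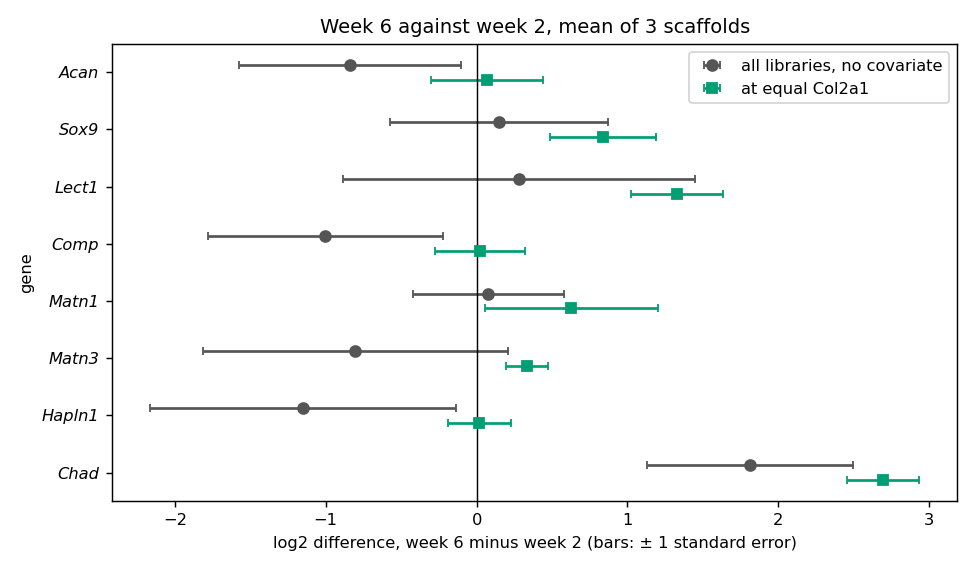
Log2 difference of week 6 minus week 2 over the mean of 3 scaffolds for each gene, with bars of 1 standard error on either side; grey circles are the fit without a covariate and green squares the fit at equal Col2a1. Standard errors shrink in 7 of the 8 genes when Col2a1 enters the fit, and Chad stands at 2.69 while Acan, Comp and Hapln1 stand between 0.02 and 0.07.

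Other genes of cartilage were read from lists drawn up by function. Of 7 genes of cartilage collagens, 6 were tested and 0 passed in any comparison by edgeR. Their median log2 difference between the weeks was -1.10 over the mean of 3 scaffolds, against -0.022 over all genes, and their median correlation with the mean of the 8 genes was 0.93. Col11a1, a fibril-forming chain, had the smallest unadjusted p of them, at -1.20 ± 0.393 (edgeR adjusted p = 0.185). Ihh, the growth plate signal that paces chondrocyte maturation, correlated with the mean of the 8 at 0.87. The median over the 13 tested growth plate signals was 0.38. Sox5 and Sox6, partners of Sox9, correlated at 0.09 each, which was also the median of the 7 tested chondrocyte transcription factors.

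Of 23 tested genes among other cartilage matrix proteins, 1 rose between the weeks and 0 fell, where 0.686% of all genes passed by edgeR. The gene that rose was Cytl1, a small secreted protein of chondrocytes, at 2.73 ± 0.525 over the mean of 3 scaffolds (edgeR adjusted p = 0.0350). It read 0.498, 0.634 and 2.04 CPM around PCL at week 2 and 3.63, 4.55 and 10.1 CPM at week 6. Around CaP it read 1.69, 1.00 and 1.14 CPM and then 3.41, 0.566 and 5.69 CPM, and around ACPC-NP 0.0394, 0.473 and 0.618 CPM and then 2.14, 5.28 and 14.9 CPM. The weeks were separated around PCL and ACPC-NP, and CaP week 6 replicate 2 lay below the CaP libraries of week 2. The call was lost when any of 11 of the 18 libraries was left out (adjusted p up to 0.0898). Cytl1 correlated with the mean of the 8 at 0.09.

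Panx3, a channel protein of maturing chondrocytes and osteoblasts, was the 1 of 11 tested genes of hypertrophy and mineralisation that fell. It stood at -2.49 ± 0.509 over the mean of 3 scaffolds (edgeR adjusted p = 0.0433), where 0.686% of all genes passed. The call was lost in 15 of 18 fits with a library left out. It read 5.70 to 30.1 CPM around PCL at week 2 and 2.12 to 3.998 CPM at week 6, 13.1 to 16.9 CPM around CaP and then 0.566 to 10.2 CPM, and 3.93 to 14.1 CPM around ACPC-NP and then 0.385 to 1.41 CPM. The ranges of the weeks were apart around each scaffold. None of 7 tested chondrocyte transcription factors, 13 growth plate signals, 13 aggrecanases and matrix proteases and 23 genes of sulphated glycosaminoglycan synthesis passed in any comparison by edgeR. The median differences of these 4 lists between the weeks were 0.092, 0.046, -0.338 and -0.031. Col10a1, the marker of hypertrophic chondrocytes, was not analysed here.

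In lists of other tissues at most 1 gene of a list passed between the weeks over the mean of 3 scaffolds. Of all genes, 0.686% passed by edgeR in this comparison. The summed level of 10 osteoblast genes was 15400 to 24430 CPM around PCL at week 2 and 7196 to 10350 CPM at week 6, with 11540 to 26340 and then 6919 to 14450 CPM around CaP, and 7914 to 21910 and then 4700 to 7875 CPM around ACPC-NP. Such a sum weights each gene by its level, and this one mainly follows Col1a1. That gene held 14800 of the 15400 CPM in PCL week 2 replicate 1 and 4373 of the 4700 CPM in ACPC-NP week 6 replicate 1. Of these 10, 1 fell, Col1a1 of type I collagen, at -1.23 ± 0.236 (edgeR adjusted p = 0.0350, lost in 12 of 18 fits with a library left out). Of 9 tendon genes 1 fell, Tnmd, the tendon relative of Lect1, at -2.70 ± 0.442 (edgeR adjusted p = 0.0170, lost without PCL week 6 replicate 3). Tnmd was at the edge of detection at week 6, with 0.0427 to 0.286 CPM over the libraries. At week 2 it read 2.10, 1.55 and 6.31 CPM around CaP, 0.230, 1.11 and 1.08 CPM around PCL, and 0.354, 0.670 and 0.561 CPM around ACPC-NP. Of 8 skeletal muscle genes 1 rose, the myosin Myh1, at 2.16 ± 0.461 (adjusted p = 0.0469, lost in 15 of the 18 fits). 8 of the 8 muscle genes lay above 0 between the weeks, with a median of 1.67, and their summed level ran from 21.9 to 85.3 CPM over the libraries of week 2 and from 60.4 to 622 CPM over those of week 6. Of 9 genes of fibroblasts and stroma, 0 passed in any comparison by edgeR, and 4 lay above 0 between the weeks, with a median of -0.352. Across the libraries the mean of the 8 cartilage genes correlated with the summed osteoblast genes at 0.52, the tendon genes at 0.50 and the muscle genes at -0.13. Taken singly, the 10 osteoblast genes correlated with it at a median of 0.53, and Col1a1 at 0.51. The part of these other tissues in the cartilage results was not tested.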

How the data were processed

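Bulk mRNA was sequenced in 18 libraries of 6 groups. The count table deposited by the authors gives whole reads for each gene symbol, unnormalised, and was used as it stands. Their table of normalised values was not used. Per the submitters' processing notes, the tools were bcl2fastq 2.20.0, STAR 2.7.9a, Subread 2.0.1 and featureCounts, with build Rnor_6.0; annotation and strand setting are not given there, so reads of overlapping or antisense genes cannot be told apart. The table has no coordinates; 14821 symbols matched the RefSeq table of GRCr8, used for names and promoters only.

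The filter was filterByExpr with a minimum count of 10 and a minimum total of 15, and 11814 genes passed it. TMM scaling and edgeR 4.0.16 in R 4.3.3 followed, with a quasi-likelihood fit (robust) over all 18 libraries, a term per group and no covariate. Benjamini-Hochberg adjustment ran over all genes of each of 13 comparisons, with a threshold of 0.05. Log2 CPM for spread and correlation used a prior count of 2. Tests were tried on simulated counts. Other settings were DESeq2 1.42.0, voom with quality weights (limma 3.58.1), no filter, DESeq2 size factors in edgeR, a replicate block, fits on the compared groups alone, each library left out, and PCL week 2 replicate 2 with ACPC-NP week 2 replicate 3 left out. The Col2a1 covariate and its variants were added after seeing the data.

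The 8 genes and the gene lists were chosen with earlier results of these data known. All 8 genes are named. From each list the genes past the threshold are named. Where none passed, the text names the gene with the smallest unadjusted p (Col11a1), genes given for their correlation (Ihh, Sox5 and Sox6), or none. Some markers that define a cell type are named too. At this depth counting error is small except for genes of few counts, such as Matn1. No libraries of a group were duplicates.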

Additional observations from a re-analysis of the deposited data

How the results depend on the processing

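Of the 8 cartilage genes, 0 were called in any comparison with the replicate block, no low-count filter, DESeq2 size factors in edgeR, fits on the compared groups alone, or both libraries that stand apart removed. These 2 are PCL week 2 replicate 2, which stood out in the cartilage genes, and ACPC-NP week 2 replicate 3, which stood out over all genes. PCL week 6 replicate 3 and CaP week 6 replicate 3, also high in the cartilage genes, were kept in that setting. DESeq2 and voom each called 1 (Matn1) for ACPC-NP against PCL at week 6, and voom called 1 (Matn1) for PCL between the weeks; with a library left out, 0 to 1 were called for ACPC-NP against PCL at week 6 and 0 elsewhere. All 48 mean levels stayed within 1 SD with DESeq2 size factors. Without PCL week 2 replicate 2 and ACPC-NP week 2 replicate 3, 38 of 72 values of the 8 genes turned. ACPC-NP against PCL at week 2 then had 8 of 8 above 0, and so did CaP against PCL. Among the values that turned were Hapln1 (ACPC-NP against PCL, week 2, 2.38) and Matn1 (CaP against PCL, week 2, 0.33). Matn3 (0.50) and Hapln1 (0.08) over the mean of 3 scaffolds turned too. By voom 46 of 104 values of the 8 genes over the 13 comparisons turned: CaP against PCL at week 6 went from 7 of 8 above 0 to 0, and ACPC-NP against PCL at week 2 from 0 of 8 to 7, with Hapln1 at 1.49. Over the mean, Sox9 (-0.43) and Lect1 (-1.17) turned by voom. None of the values that turned was called, and the cause was not tested. Panx3 and Myh1 missed the threshold without the low-count filter (adjusted p = 0.0533 and 0.0579). With a library left out, values over the mean of 3 scaffolds ran from -0.81 to 0.59 for Sox9, -2.02 to 1.83 for Lect1, -0.078 to 0.770 for Matn1 (0.884 with both libraries that stand apart removed), -2.40 to 0.56 for Matn3 and -2.79 to 0.18 for Hapln1; at week 2 they ran from -2.46 to 2.07 for Hapln1 (ACPC-NP against PCL) and -2.24 to 0.33 for Matn1 (CaP against PCL).

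Counts over all genes depended far more on the tool. By edgeR they were 0, apart from 1 for ACPC-NP between the weeks and 81 over the mean of 3 scaffolds. DESeq2 called 632 (ACPC-NP against PCL) and 595 (ACPC-NP against CaP) at week 2, 878 and 23 at week 6, 792 (ACPC-NP), 5 (CaP) and 29 (PCL) between the weeks, 377 over the mean, and 132, 183 and 2 for the changes of ACPC-NP against PCL, ACPC-NP against CaP and CaP against PCL. Voom called 281 and 365 at week 2, 4042 and 70 at week 6, 1350 (ACPC-NP) and 1739 (PCL) between the weeks, 1620 over the mean, and 1930 and 167 for the first 2 changes. With only the groups compared, 1 gene was called for ACPC-NP against CaP at week 6 and 0 for ACPC-NP between the weeks. With both libraries that stand apart removed, 0 were called for ACPC-NP between the weeks and 189 over the mean. With a library left out, counts ran from 0 to 877 (ACPC-NP against PCL) and 0 to 893 (ACPC-NP against CaP) at week 2, 0 to 1787 (ACPC-NP against PCL) and 0 to 1 (CaP against PCL) at week 6, 0 to 882 (ACPC-NP) and 0 to 52 (PCL) between the weeks, 2 to 179 over the mean, and 0 to 148, 0 to 57 and 0 to 1 for the 3 changes. At equal Col2a1 the count over the mean was 20, and it was 12 with Col9a1, 36 with Col11a1 and 36 with Acan as covariate, 1274 by voom, 51 with both libraries removed, and 1 to 92 with a library left out; Chad was called in all 25 of these settings.

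Between groups of the same week, libraries of the same replicate number were compared in their deviations from the group mean. These deviations correlated at -0.262 to 0.379 over 18 pairs, and 9 of the 18 were above 0.1. Pairs of unlike number were not set beside them, so whether equal numbers pair the libraries was not tested. With the replicate block, 427 genes were called for ACPC-NP against PCL at week 6, 0 (ACPC-NP) and 1 (PCL) between the weeks, 49 over the mean and 11 at equal Col2a1, where Chad stood at 2.69 (adjusted p = 0.00539); around ACPC-NP alone its call at equal Col2a1 was lost (2.66, adjusted p = 0.0709). Over the mean, Sox9 (-0.33) and Lect1 (-1.34) turned with the block, neither called.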

Other observations

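The genes with levels most like Chad over 18 libraries were R3hdml (r = 0.874), Fam89a (0.851), Nog (0.818), which encodes the bone morphogenetic protein antagonist noggin, Ggnbp1 (0.806) and Crispld1 (0.802), and of these Crispld1 was also among the 10 most like the mean of the 8 cartilage genes. R3hdml (2.63 ± 0.470 on the log2 scale, SE, edgeR adjusted p = 0.0434) and Crispld1 (2.22 ± 0.274, adjusted p = 0.00371) were also higher at week 6 at equal Col2a1 over the mean of 3 scaffolds. Both were picked for likeness to Chad in these same libraries, so these values are not independent of those of Chad. Without CaP week 6 replicate 3 that fit called 1 gene, Chad, so both calls were lost. Crispld1 read 0.307, 4.79 and 0.333 CPM around PCL at week 2 and 0.245, 0.515 and 13.1 CPM at week 6, 1.97, 1.59 and 2.80 CPM around CaP and then 0.139, 0.174 and 19.4 CPM, and 0.866, 1.26 and 0.618 CPM around ACPC-NP and then 0, 3.39 and 4.42 CPM. Its highest library was CaP week 6 replicate 3, as for Chad.

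Genes most like Matn1 were Tfcp2l1 (r = 0.951), Eif4g2 (0.944), Ammecr1l (0.940), Phf20 (0.926) and Kdm5a (0.922). Eif4g2, a translation initiation factor, and Kdm5a, a histone demethylase, are made by most cells, and none of the 5 was among the cartilage lists.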
